A study of Mus musculus with 9 samples.

Results

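The CLCA family, named calcium-activated chloride channel regulators, was read in mouse epidermis by every probe set that the platform annotation assigns to exactly 1 gene and to Clca1, Clca2, Clca3a1, Clca3a2, Clca3b, Clca4a or Clca4b. This gave 10 probe sets for 7 genes, of 45037 probe sets and 18193 genes on the arrays. The family was chosen with its differences between the groups in view, so its differences are given as a description and without p-values. Epidermis was compared between 5 mice in which Alox12b, an epidermal lipoxygenase of the skin barrier, had been inactivated and 4 littermate controls, with 1 Affymetrix Mouse Genome U430 2.0 array per mouse.

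The inactivated mice (genotype p/p +/cre) carried homozygous floxed Alox12b and a tamoxifen-dependent Cre-ERT2 driven by the keratin 14 promoter, which is active in basal keratinocytes. The controls (genotype p/p +/+) were homozygous for the same floxed allele and lacked Cre. Both groups were 8 weeks old, had been crossed for 5 generations into the hairless SKH1 background, and received 3 tamoxifen injections of 1 mg. Epidermis was scratched off frozen skin 6 days after treatment. Active Cre and loss of Alox12b occurred in the same mice and cannot be told apart. The basal keratin Krt5 (12.19 in inactivated mice and 12.26 in controls) and the suprabasal keratin Krt10 (13.31 in inactivated mice and 13.49 in controls) were near the top of the log2 range. The fibroblast collagens Col1a2 (11.58 in inactivated mice and 12.88 in controls) and Col3a1 (11.75 and 12.66) were bright as well. The material thus held more than keratinocytes, and of 10 fibroblast markers 9 were lower in inactivated mice and 1 was higher. Array medians lay between 4.34 and 4.42.

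CLCA proteins were first taken for chloride channels and are now known as secreted or membrane-anchored proteins that cleave themselves with a metalloprotease domain. Human CLCA1 holds the calcium-activated chloride channel anoctamin 1 at the cell surface through its von Willebrand factor A domain. In mice, Clca2 is found in stratified squamous epithelia such as epidermis, Clca1 in mucus-secreting goblet cells and Clca4a in intestinal epithelium. Clca3a1 has been described on lymphatic endothelium and Clca3a2 in the mammary gland, and the human genome keeps their counterpart only as a pseudogene.

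In the epidermis of inactivated mice, Clca3a2 was lower by 3.69 on the log2 scale (12.9-fold), Clca3a1 by 3.13 (8.78-fold), Clca2 by 1.12 (2.18-fold) and Clca1, on 1 of its 2 probe sets, by 1.08 (2.11-fold). Clca4a was 0.33 higher, and Clca3b and Clca4b differed by under 0.2 with signals near the bottom of the array range. Of the 10 probe sets, 6 were lower and 1 was higher at an adjusted p under 0.05 in the limma fit over all probe sets, so 7 of 10 passed, against 28.6% on the whole array (16.0% lower and 12.7% higher). With array medians subtracted the balance over the array turned, at 6342 probe sets lower and 7443 higher, against 7202 lower and 5698 higher as deposited. All 6 were lower by at least 1, which held for 2.70% of probe sets. By gene, 5 of 7 passed, against 34.4% of all genes. The groups did not overlap on the same 7 probe sets. Over all probe sets, the inactivated arrays lay wholly below the controls on 14.3% and wholly above them on 11.4%. Since the family was chosen on this contrast, nothing is read from these shares. RNA of scratched-off tissue cannot separate fewer cells of a type from less RNA per cell.

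**Figure D1:**
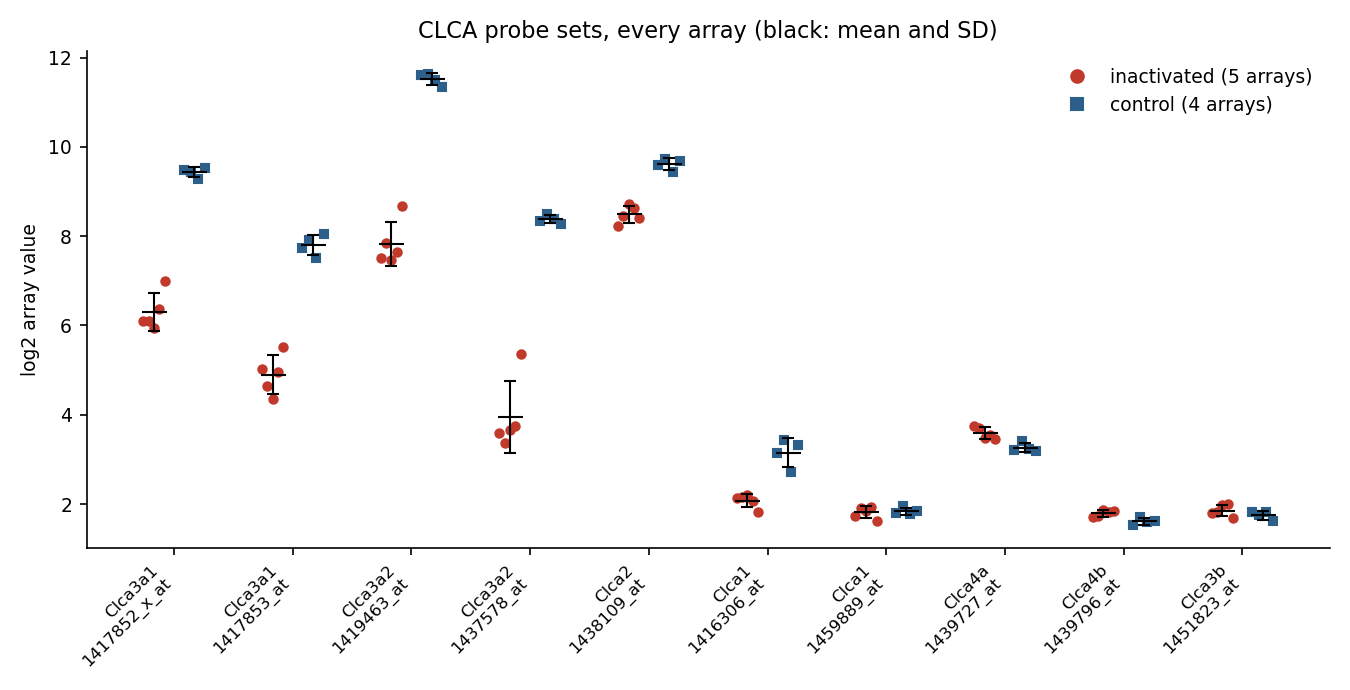
Log2 values of the 10 CLCA probe sets on every array, with the 5 inactivated arrays (red circles) left of the 4 control arrays (blue squares) and black bars for mean and SD. The groups separate widely on the Clca3a1 and Clca3a2 probe sets, where inactivated replicate 5 is the highest inactivated array on 4 of 4, and overlap on 3 probe sets near the bottom of the range.

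Clca3a2 had the largest differences of the family. Probe set 1419463_at read 7.50, 7.85, 7.47, 7.64 and 8.67 on inactivated arrays 1 to 5, against 11.60, 11.63, 11.49 and 11.34 on control arrays 1 to 4. Every inactivated array lay more than 2 log2 units below every control, and replicate 5 stood above the other inactivated arrays. The difference was -3.69 ± 0.22 (SE, 5 and 4 arrays), and 12 of 18193 genes had a larger fall. Nothing is read from this rank either, since the family was chosen on this contrast.

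The second Clca3a2 probe set, 1437578_at, read 3.60, 3.37, 3.65, 3.74 and 5.36 on the inactivated arrays, against 8.35, 8.49, 8.38 and 8.28 on the controls. The controls spanned a narrow range and the inactivated arrays a wide one, with an SD of 0.80 in inactivated mice and 0.09 in controls. The difference was -4.43 ± 0.34, or 21.6-fold lower. Both probe sets thus placed Clca3a2 far below the controls, by sizes that differed between them.

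Clca3a1, the neighbour of Clca3a2 on chromosome 3 in the RefSeq gene order, was read by 2 probe sets as well. Probe set 1417852_x_at read 6.09, 6.09, 5.94, 6.37 and 6.99 on the inactivated arrays, against 9.49, 9.44, 9.28 and 9.52 on the controls. Again replicate 5 was the highest inactivated array and no value came near the controls. The difference was -3.13 ± 0.19.

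Probe set 1417853_at of Clca3a1 read 5.03, 4.65, 4.35, 4.95 and 5.52 on the inactivated arrays, against 7.73, 7.91, 7.52 and 8.05 on the controls. The difference was -2.90 ± 0.21 (7.48-fold lower), and the order of the inactivated arrays again ended with replicate 5. Clca3a1 and Clca3a2 are close copies, and the suffix of 1417852_x_at marks probes that can bind several transcripts. A further probe set that the annotation assigns to both genes, 1460259_s_at, lies outside the 10 and read 7.92 ± 0.51 in inactivated mice and 11.83 ± 0.20 in controls (SD). How far the signals of the 2 genes are separate was not tested.

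Clca3a1 differed by more than 3 log2 units between the groups, as did Clca3a2, whose window is not reported here. The region before the RefSeq start of Clca3a1 is shown. It holds the 250 bases before the start (RefSeq, GRCm38.p6, minus strand), given 5′ to 3′ with no capitals.
Clca3a1 (chr3:144760978-144761227): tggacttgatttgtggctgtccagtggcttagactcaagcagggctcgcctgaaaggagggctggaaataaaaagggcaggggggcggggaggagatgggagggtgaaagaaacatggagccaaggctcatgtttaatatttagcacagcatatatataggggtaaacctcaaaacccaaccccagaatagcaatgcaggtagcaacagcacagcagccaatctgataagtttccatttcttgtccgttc

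The windows of Clca3a1, Clca2 and Clca4b were searched for 3 motifs on both strands, which were chosen after the sequences had been seen. The STAT motif TTCNNNGAA (7.02% of all 32851 windows of this length) was in none of the 3. TATAAA (12.4%) was only in that of Clca4b, 166 and 119 bases before its start, both times on the strand opposite to the gene. CAGCTG (13%), an E-box, was only in that of Clca2, 96 bases before its start. The Clca3a1 window held none of these motifs. These are letter matches and say nothing of binding.

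Clca3b, described in smooth muscle in mice, read 1.79, 1.82, 1.97, 1.99 and 1.69 on the inactivated arrays, against 1.82, 1.75, 1.83 and 1.61 on the controls. The groups overlapped, with a difference of 0.10 ± 0.08. The mean of this probe set, 1451823_at, lay at the 4.15 percentile of all probe set means, so a lower level could hardly have been read. The file gives no detection calls.

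Clca2, the member described in squamous epithelium, was read by the single probe set 1438109_at. It read 8.24, 8.44, 8.73, 8.63 and 8.41 on the inactivated arrays, against 9.59, 9.74, 9.44 and 9.68 on the controls. The groups were apart and both were tight, and replicate 5 lay among the other inactivated arrays. The difference was -1.12 ± 0.11.

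Clca1, the goblet cell member, gave readings that disagreed between its probe sets. Probe set 1416306_at read 2.13, 2.16, 2.21, 2.06 and 1.83 on the inactivated arrays, against 3.14, 3.44, 2.71 and 3.32 on the controls. The groups did not overlap and the difference was -1.08 ± 0.14. Its mean lay at the 21.7 percentile of probe sets, a dim signal in both groups. The other probe set, 1459889_at, was at 1.81 ± 0.13 in inactivated mice (SD, n = 5) and 1.84 ± 0.08 in controls (SD, n = 4), with a difference of -0.03 ± 0.08 and a mean at the 4.54 percentile. With the mean of both probe sets the Clca1 difference was -0.55.

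Clca4a, the intestinal member, was the only one that passed as higher. It read 3.74, 3.71, 3.48, 3.54 and 3.46 on the inactivated arrays, against 3.21, 3.40, 3.24 and 3.19 on the controls. The lowest inactivated array was close to the highest control, and the difference of 0.33 ± 0.09 no longer passed without control replicate 4 (0.30). Clca4b read 1.70, 1.72, 1.86, 1.82 and 1.85 on the inactivated arrays, against 1.52, 1.70, 1.59 and 1.63 on the controls. Its groups met at 1.70 and the difference of 0.18 ± 0.07 did not pass. The pseudogene Clca4c-ps, which lies between Clca3b and Clca4b and is outside the 10 probe sets, was at 1.56 ± 0.09 in inactivated mice and 1.60 ± 0.10 in controls (SD).

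Inactivated replicate 5 stood apart on the array as a whole, with a score of -25.3 on the first principal component against -55.8 to -44.9 for the other inactivated arrays, and controls from 48.6 to 63. Relative to the control mean, its Clca3a1 and Clca3a2 values on the 4 probe sets came to 63.0% to 74.5% of the mean difference of inactivated replicates 1 to 4. The median of this share was 77.5% over the 2019 probe sets that passed and differed by at least 1. For Clca2 the share was 109% and for Clca1 on 1416306_at 130%. Without replicate 5 the differences were -3.90 for Clca3a2 and -3.31 for Clca3a1 on the brighter probe sets, -1.10 for Clca2 and -1.01 for Clca1.

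The labels give no sex, and Xist and Y-linked probe sets read 3 inactivated mice as female and 2 as male, and 1 control as female and 3 as male. Among males, Clca3a2 differed by -3.82 (1419463_at), Clca3a1 by -3.32 (1417852_x_at), Clca2 by -1.28 and Clca1 by -1.01 (1416306_at). Among females, with a single control, these differences were -3.67, -3.05, -0.998 and -1.11. On these probe sets the 4 genes were thus lower in both sexes. The other Clca1 probe set, 1459889_at, differed by -0.03 among males and 0.01 among females. Alox12b itself, on its only probe set, was 9.89 ± 0.29 in inactivated mice and 9.28 ± 0.10 in controls (SD). The position of that probe set relative to the floxed part is not given in the sources used here, so it does not check the deletion.

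The family forms 1 cluster on chromosome 3, in the order Clca3a1, Clca3a2, Clca3b, Clca4b, Clca4a, Clca1 and Clca2 in the RefSeq gene table. Clca3a1 and Clca3a2 at one end and Clca1 and Clca2 at the other were lower. Between them lie Clca3b and Clca4b, at control means of 1.75 and 1.61, where a fall could not be read, and the dim Clca4a, so no pattern along the chromosome is drawn. Of the 6 protein-coding genes on each side, 10 of 12 had a probe set, of which 1 passed as higher and 2 as lower, against 15.5% and 18.9% of all genes. Lmo4, a LIM-domain transcriptional cofactor, was lower by 1.61 ± 0.15 (limma adjusted p = 4.63e-05) at 7.24 ± 0.33 in inactivated mice and 8.85 ± 0.12 in controls (SD).

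Odf2l, next to Clca2, was lower by 0.50 ± 0.12 (adjusted p = 0.00919), and its other probe set by 0.60. Sh3glb1, next to Clca3a1, was 0.34 ± 0.08 higher on its brightest probe set (adjusted p = 0.00829) but lower on its other probe sets, by -0.46 and -0.48, so its direction is not settled. Hs2st1 (0.29), Selenof (-0.18), Col24a1 (-0.01), Znhit6 (0.01), Ccn1 (0.93), Ddah1 (0.38) and Bcl10 (-0.03) did not pass.

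**Figure D2:**
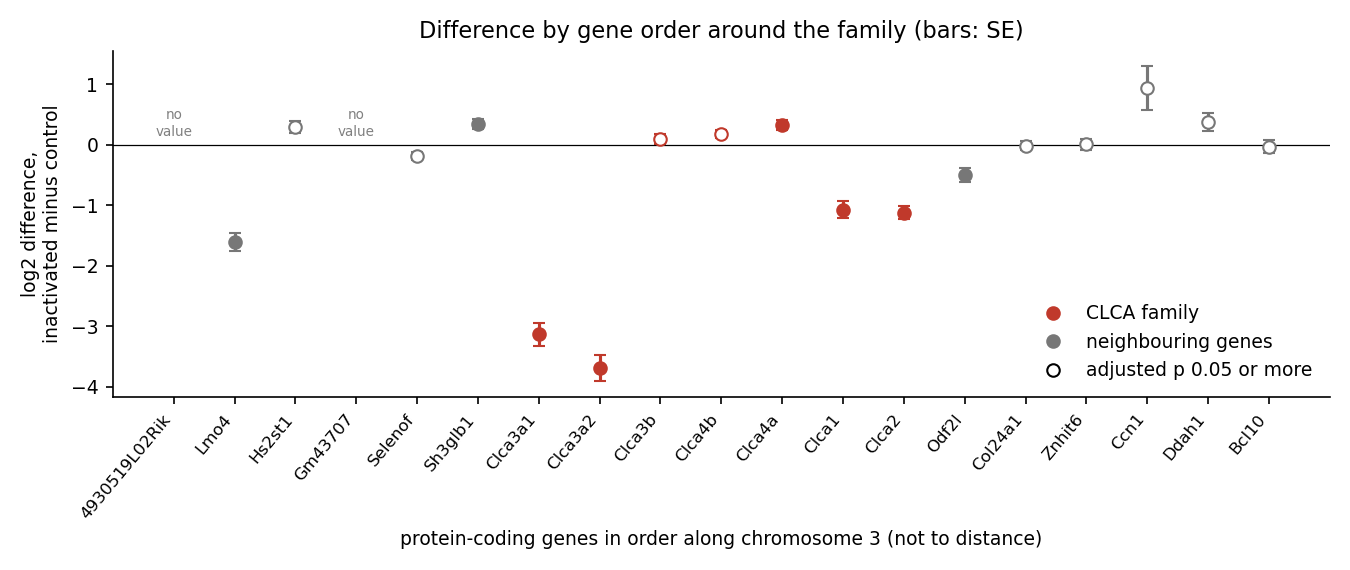
Log2 differences (inactivated minus control, bars are SE) of the CLCA genes (red) and of 6 protein-coding genes on each side (grey), in their order along chromosome 3, each gene at its brightest probe set and open symbols where the adjusted p is 0.05 or more. Clca3a1 and Clca3a2 lie below -3, and Clca3b and Clca4b have signals too dim for a fall to be read.

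Among other genes, those whose profile over the 9 arrays lay nearest to a member were found by the root mean square distance, in log2 units, after subtraction of the control mean. Nearest to Clca3a1 were the basal keratin Krt15 (distance 0.20), the kinase Nuak1 (0.27), the glucose transporter Slc2a12 (0.29), the adhesion receptor Adgra3 (0.31) and Tppp (0.32). Nearest to Clca3a2 were the metallothionein Mt4 (0.39), Krt15 (0.41), Adgra3 (0.42), Clca3a1 (0.45) and Wfdc21 (0.47). Krt15 read 8.59 in inactivated mice and 11.82 in controls, a difference of -3.22 ± 0.21.

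Clca2 lay nearest to Dst, which encodes the hemidesmosome linker dystonin (0.12), and then to Arrdc3 (0.14), Pdcd4 (0.14), the claudin Cldn8 (0.15) and Lzts2 (0.16). For Clca1 the nearest was Clca2 (0.18), followed by Phxr4 (0.20), the calcium release channel Itpr2 (0.21), Add2 (0.22) and Cldn8 (0.23). The distance measures likeness on these arrays, where most of the variation is between the groups.

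**Figure D3:**
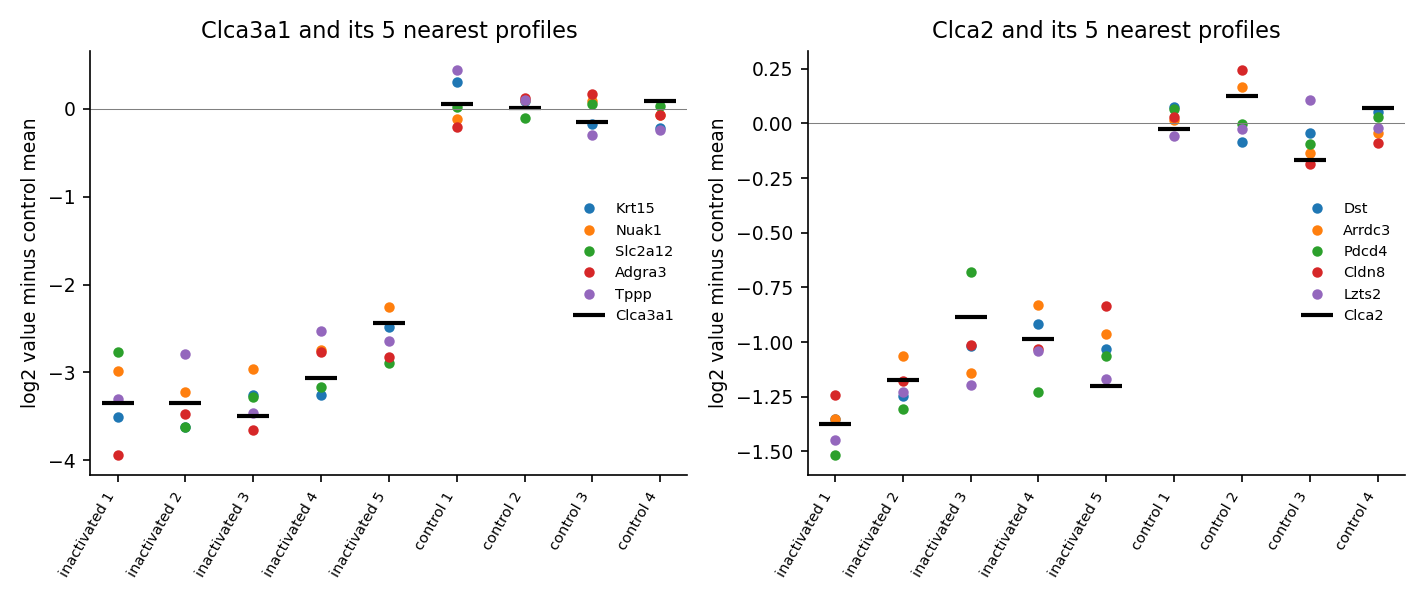
Log2 values minus the control mean on each of the 9 arrays for Clca3a1 (left, black bars) and Clca2 (right, black bars) with the 5 genes of nearest profile (coloured points), inactivated arrays left of control arrays. Krt15 follows Clca3a1 at a distance of 0.20 and Dst follows Clca2 at 0.12.

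Genes linked to the CLCA family by chloride or calcium transport, partners, domain, cell type or regulation were compared in 9 lists. They were set beside all genes, of which 15.5% passed as higher and 18.9% as lower with a median difference of 0.03. Of 7 anoctamins, the channels and scramblases that include the calcium-activated chloride channel itself, 3 were lower, none was higher and 4 did not pass, with a median of -0.38. Ano9 fell by 1.10 ± 0.15 (adjusted p = 0.000412) and the scramblase Ano6 by 0.44 ± 0.10 (adjusted p = 0.00986). Ano1, the channel that human CLCA1 acts on, was at 8.41 ± 0.09 in inactivated mice and 8.78 ± 0.26 in controls (SD). It fell by 0.38 ± 0.11 (adjusted p = 0.0311), a call that was lost when any of 5 single arrays was left out.

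Of 25 other chloride channels, 3 were higher, 6 lower and 16 did not pass, with a median of 0.12. With array medians subtracted 6 were higher and 5 lower, and without single arrays 1 to 4 were higher, so the balance of directions is not settled. Clic4 fell by 0.67 ± 0.14, Tmc4 by 0.62 ± 0.10, Clic3 by 0.54 ± 0.13 and the exchanger Clcn4 by 0.47 ± 0.07. The epithelial channel Cftr, named after its value was seen, was dim in both groups, at 1.96 in inactivated mice and 1.76 in controls. Of 24 chloride transporters and their kinases, 2 were higher, 5 lower and 17 did not pass (median -0.03), and with array medians subtracted 4 were higher and 5 lower. Slc12a2, which loads cells with chloride together with sodium and potassium, fell by 1.54 ± 0.08 (2.90-fold, adjusted p = 1.69e-06), and the potassium-chloride transporter Slc12a4 by 0.69 ± 0.13. The anion exchanger pendrin, Slc26a4, rose by 2.16 ± 0.45 (adjusted p = 0.00494), with an SD of 1.06 in inactivated mice and 0.25 in controls, and the kinase Wnk3 rose by 0.66 ± 0.12.

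Among 23 calcium handling genes, 6 passed as higher, 9 as lower and 8 as neither (median -0.15). The calcium release channels Itpr3 and Itpr2 fell by 1.89 ± 0.10 (adjusted p = 2.06e-06) and 1.09 ± 0.12, and the plasma membrane calcium pump Atp2b4 by 1.76 ± 0.22. The phospholipase Plcd1 rose by 1.10 ± 0.10. In the list of CLCA2 partners and adhesion genes, 2 of 14 were higher, 3 lower and 9 did not pass (median 0.04). The store-operated calcium entry pair Stim1 and Orai1, which both of these lists hold, fell by 0.95 ± 0.10 and 0.64 ± 0.09, and Rdx fell by 0.46 ± 0.07 while the integrin Itga3 rose by 0.49 ± 0.09. Integrin beta 4, to which human CLCA2 binds, did not pass (Itgb4, 0.31 ± 0.13, named after its value was seen).

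Mucus genes, with which Clca1 is expressed in goblet cells, numbered 25, and 19 of them missed the threshold, against 4 higher and 2 lower (median 0.07). Fcgbp, a large mucus protein with von Willebrand factor D domains, was the exception in size. It was at 6.64 ± 0.36 in inactivated mice and 10.90 ± 0.11 in controls (SD), a fall of 4.26 ± 0.16 (19.1-fold, adjusted p = 2.42e-07). The secretoglobin Scgb1a1 fell by 1.12 ± 0.24, and Tff1 and Muc20 rose by 0.33 and 0.32, calls lost without any of 5 and any of 3 single arrays. The number of mucus genes called higher ranged from 1 to 4 when single arrays were left out. The other 2 higher calls were Muc5b (0.27, limma adjusted p = 0.0434) and Zg16 (0.30, limma adjusted p = 0.0436), both close to the threshold. The goblet cell genes Muc5ac (0.00), Spdef (0.12), Foxa3 (0.15) and Agr2 (-0.42) missed the threshold and were picked after seeing them.

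In the response to interleukins 4 and 13, which induce Clca1 in airways, 4 of 16 genes were higher, 2 lower and 10 did not pass (median 0.15). Arginase, Arg1, rose by 2.54 ± 0.21 (adjusted p = 2.02e-05) and the chitinase-like Chil3 by 2.17 ± 0.31, while Postn fell by 1.94 ± 0.25 and the chemokine Ccl11 by 0.90 ± 0.18. Human CLCA2 is induced by p53, and of 21 p53 target genes 13 were higher, 2 lower and 6 did not pass, with a median of 0.69. Pmaip1 rose by 2.65 ± 0.25, Ccng1 by 2.04 ± 0.12 (adjusted p = 2.94e-06) and Eda2r by 1.87 ± 0.15, and Sesn1 fell by 1.43 ± 0.22. Of 18 other proteins with a von Willebrand factor A domain, 3 were higher, 7 lower and 8 did not pass (median -0.09). Itih5 fell by 1.02 ± 0.24, Matn2 by 0.75 ± 0.14, Cacna2d2 by 0.74 ± 0.15 and Vwa1 by 0.70 ± 0.17. With the mean of its probe sets, Cacna2d2 differed by -0.17 and did not pass.

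**Figure D4:**
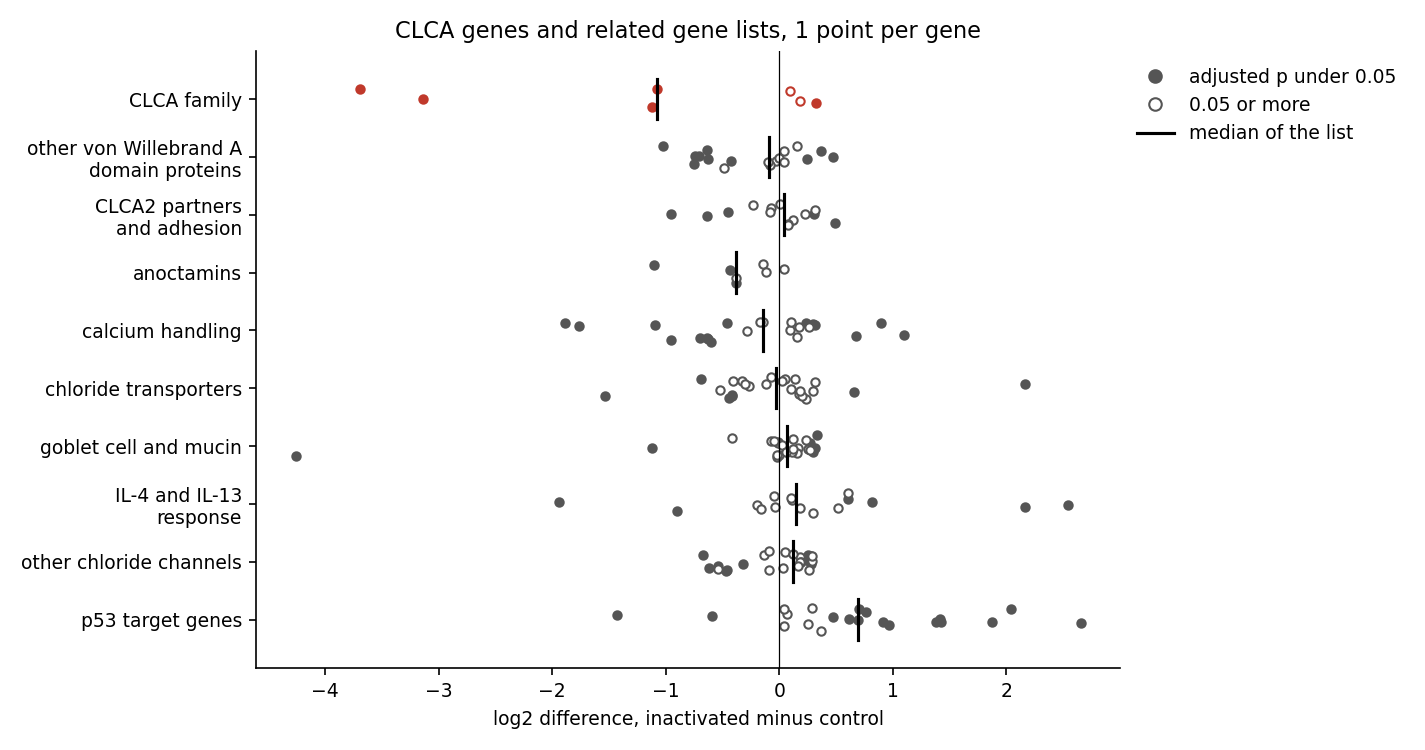
Log2 differences (inactivated minus control) of each CLCA gene (red, top row) and of each gene of 9 related lists (grey), each gene at its brightest probe set, filled where the adjusted p is under 0.05, with a black bar at the list median. The CLCA median is -1.08, Fcgbp lies at -4.26 among the mucus genes, and the p53 targets have a median of 0.69.

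Markers of other cell types also differed between the groups, some lists mostly lower and others mostly higher. The marker counts here and below stand beside 15.5% of all genes passing as higher and 18.9% as lower. Fibroblast markers were lower in 9 of 10 and higher in 1, and the log2 of their summed linear signal ran from 13.32 to 14.05 on the inactivated arrays, against 14.21 to 14.80 on the controls. Smooth muscle and pericyte markers were lower in 8 of 9, with sums of 9.80 to 10.60 on the inactivated arrays, against 10.68 to 10.98 on the controls. Their part in the CLCA differences was not tested. Without detection calls, no marker can be called absent. Among lymphatic endothelial markers, set beside Clca3a1, none of 6 passed as lower and 2 were higher (Lyve1 by 1.99 and Pdpn by 0.50). The other 4 missed the threshold: Mmrn1 (-0.55), Reln (-0.37), Flt4 (-0.18) and Prox1 (0.08). On Mmrn1 the inactivated arrays lay wholly below the controls, and Prox1 was dim, at 2.55 in inactivated mice and 2.47 in controls. The sums of the list were 8.67 to 9.47 on the inactivated arrays, against 8.58 to 8.69 on the controls.

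Markers of immune cells were partly lower. T cell markers were lower in 3 of 7 (Cd3g by 2.50, Thy1 by 1.57 and Cd3d by 0.83) and higher in 1 (Cd8a by 0.28). Cd3e (-0.19), Il2rb (-0.18) and Cd4 (-0.01) did not pass. The sums were 8.60 to 9.07 on the inactivated arrays, against 9.90 to 10.30 on the controls. Thy1, which the fibroblast list also holds, was the brightest of the T cell list, at 7.84 in inactivated mice and 9.41 in controls. Langerhans cell markers were lower in 4 of 6, with sums of 12.76 to 13.25 on the inactivated arrays, against 13.30 to 13.48 on the controls. Macrophage markers were lower in 4 of 7, with sums of 11.33 to 12.16 on the inactivated arrays, against 12.14 to 12.43 on the controls. Hair follicle markers were higher in 3 of 9 (Tchh by 2.53, Krt75 by 0.89 and Krt71 by 0.70) and lower in 1 (Krt79 by 0.90). The median of the list was 0.70. Its sums were 11.56 to 12.32 on the inactivated arrays, against 12.67 to 12.72 on the controls. These sums mostly follow Krt79, by far the brightest of the list, at 11.71 in inactivated mice and 12.61 in controls. Melanocyte markers were higher in 6 of 7, with sums of 8.34 to 9.42 on the inactivated arrays, against 7.85 to 8.11 on the controls. In the remaining lists, 1 marker was higher and 1 lower of 9 for blood endothelium, and 2 were higher of 7 for mast cells. For sebaceous gland 1 was higher and 1 lower of 8, and for neutrophils 1 was higher and 1 lower of 5. Of all genes, 34.4% passed in either direction.

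Within the keratinocytes, basal markers were lower in 4 of 8 (Krt15 by 3.22, Dst by 1.11, Col17a1 by 0.91 and Trp63 by 0.35) and higher in 1 (Krt14 by 0.47), with sums of 14.08 to 14.26 on the inactivated arrays, against 14.32 to 14.49 on the controls. Suprabasal markers were lower in 2 of 11 and higher in 1 (Dsc1 by 0.64). The 2 lower ones were Krt77, which fell by 7.09, and Krt2, which fell by 7.05, both more than any CLCA gene. The suprabasal list had sums of 15.64 to 15.93 on the inactivated arrays, against 16.02 to 16.05 on the controls. All 4 stress keratins were higher. Their part in the CLCA differences was not tested either.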

How the data were processed

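Values were used as the authors deposited them, on a log2 scale in a single table of 9 array columns. The submitters' processing notes name the R package affy. The sources used here do not say how arrays were background-corrected, normalised and summarised. The base of the logarithm was taken from the highest values, near 13.5 on every array. Summarised signals can be compressed near background, so folds of dim probe sets may be understated, which was not tested here. Samples were grouped by their titles, and mice were numbered as biological replicates. Precision is limited by how few arrays there are. The p-values weigh each group difference against the spread between mice, which limma moderates over all probe sets.

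Gene names came from the platform annotation (34945 with 1 symbol, 932 with several, 9160 unlisted), and the entrez IDs of the 7 CLCA genes match RefSeq, where older symbols such as Clca2 for Clca3a2 are synonyms. Groups were compared with limma 3.58.1 (lmFit, eBayes, two-sided) in R 4.3.3, with Benjamini-Hochberg adjustment over 45037 probe sets and a threshold of 0.05. A gene with several probe sets was read by the one of highest mean over all arrays. The fit was tested on simulated data. Members and lists were chosen with earlier results of these data known. Context genes were named by a rule: up to 4 passing genes per list with the largest difference, the 12 cluster neighbours, and the 5 nearest profiles of each member that differs by at least 1. Promoter windows of 3 members were searched for motifs, and other windows are not reported here. The planned comparison of CLCA proteins was not run, as no protein sequences were used here. Alternatives were other normalisations, a filter on dim probe sets, other priors and weights, a replicate block, sex, the mean of a gene's probe sets, removal of multi-transcript probe sets, a stricter threshold and leaving out each array.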

Additional observations from a re-analysis of the deposited data

Results flagged for a closer look

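Of 110 groups of arrays examined for an array far from the others (member probe sets and named genes, each in both groups), 6 held one, and about 1 in 20 would do so by chance. Clca3a2 on 1437578_at read 5.36 on inactivated replicate 5, against 3.74 for the next inactivated array. Lmo4 read 6.66 on inactivated replicate 2, against 7.34 for the next. Among the controls, Slc12a2 read 9.93 on replicate 2, against 10.08 for the next control, and Rdx 9.73 on replicate 3, against 9.62. Pmaip1 read 6.41 and Odf2l 5.53 on control replicate 1, against 5.53 and 5.08 for the next control.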

How the results depend on the processing

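The 6 lower CLCA probe sets passed under every alternative that kept them: the filter on dim probe sets removed 1416306_at of Clca1 and the removal of multi-transcript probe sets removed 1417852_x_at of Clca3a1, leaving 5. The family was chosen on this contrast in these arrays, so such repeats show only how the calls depend on processing. They give no independent support. Without single arrays the CLCA count was 6 lower each time and 0 to 1 higher. The number of CLCA probe sets called higher was 2 with array medians subtracted and 2 with an intensity trend and robust prior, where Clca4b passed (0.22 and 0.18), 0 without dim probe sets, which removes all dim members, and 0 at a threshold of 0.01. That threshold left 4377 lower and 2932 higher probe sets on the array, and 22 higher context genes in place of 37. Without single arrays 5753 to 7381 probe sets were lower and 4161 to 5931 higher. With array medians subtracted 6342 were lower and 7443 higher, in place of 7202 and 5698, and other chloride channels gave 6 higher and 5 lower genes in place of 3 and 6. The replicate block gave 6329 lower and 4679 higher probe sets, with the CLCA counts at 6 and 1. Deviations of same-numbered arrays from their group means had correlations of -0.27, 0.01, -0.09 and 0.08. The titles give no litter, and so few pairs cannot tell whether the numbers pair the mice. Signs turned mostly for values near 0. Clca1 on 1459889_at gave 0.02 with medians subtracted, and with the replicate block, 0.01 among females, and -0.06 to 0.02 without single arrays. Col24a1 gave 0.03 with medians subtracted, and -0.06 to 0.04 without single arrays. Bcl10 gave 0.01 with medians subtracted, 0.02 with the block, -0.10 to 0.02 without single arrays, 0.09 with mean probe sets and 0.14 without multi-transcript probe sets. Znhit6 gave -0.04 with the block, -0.02 with sex and -0.04 to 0.05 without single arrays. Selenof gave 0.09 and Sh3glb1 -0.20 with the mean of their probe sets, and Sh3glb1 -0.48 without multi-transcript ones. The cause was not tested. For dim members the signal over background limits what can be read.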
